A study of Mus musculus with 6 samples.

Results

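Peroxisomal beta-oxidation genes were followed in the livers of mice fed the HFC diet with or without lovastatin or fenofibrate. The genes were chosen by symbol: Abcd2, Abcd3, Ehhadh, Hsd17b4, Acaa1a, Acaa1b, Eci2, Decr2, Crat and Pex11a. A listed probe was found for 9 of these 10 genes, on 19 of the 22575 spots of the array, and 16887 named genes were measured in all. Acaa1b had no listed probe, so its RNA was not analysed here.

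Each of 6 two-colour oligonucleotide arrays compared the liver RNA of 1 C57BL/6 mouse with a common pool of liver RNA from 6 chow-fed C57BL/6 mice. All 6 mice were 7 weeks old at the start and ate the HFC diet for 12 days. The HFC group (2 mice) had no drug named in its sample text, and the design text gives this arm oral vehicle. The HFC lovastatin group (2 mice) received lovastatin, an inhibitor of cholesterol synthesis, at 30 mg/kg from day 5. The HFC fenofibrate group (2 mice) received fenofibrate, an agonist of the nuclear receptor PPARα, at 100 mg/kg from day 5. The lovastatin group follows the sample titles, because the treatment text of those samples names fenofibrate. The study had 24 mice in 4 arms of 6, and the mice without an array here were not analysed. No array of a single chow-fed mouse was used, so the spread among chow-fed livers does not enter any comparison.

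On the 4 arrays without fenofibrate the mouse carried Cy5 and the pool Cy3, and with fenofibrate the dyes were the other way round. Dye and drug therefore cannot be told apart for fenofibrate. Every value below is a deposited log ratio, read as log2 of mouse over pool. Base and direction are likely rather than stated, and the sign of the fenofibrate arrays decides that of every fenofibrate value. The base was taken by convention, and the direction from the order of the channels in the labels. In bulk liver RNA, a change in the share of a cell type and a change of RNA per cell cannot be told apart. Ratios carry no level, so the liver label could not be checked against the level of hepatocyte genes.

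Peroxisomes shorten very long, branched and dicarboxylic fatty acids that mitochondria handle poorly. Transporters of the ABCD family bring the acyl-CoA in, a bifunctional protein hydrates and dehydrogenates the unsaturated intermediate, and a thiolase releases acetyl-CoA. Auxiliary enzymes deal with double bonds, and carnitine acyltransferases pass the shortened chains on. In rodent liver many of these genes are known targets of PPARα, which fibrates activate.

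On HFC replicate 2, the values of 4 of 8 blocks of array columns were displaced along the rows. Within those blocks the correlation with the mean of 4 other arrays, without lovastatin replicate 1, lay between -0.04 and 0.02 as deposited. The best rotation, chosen by this same correlation, gave 0.30 to 0.31, and the next best gave 0.02 to 0.04. These blocks hold 50.3% of the spots used. The displaced spots of that array were left out, which took the single spots of Ehhadh, Hsd17b4 and Crat and 1 of the 2 Abcd2 probes. Those 3 genes therefore have 1 HFC array and no SD in that group. Replicates correlated weakly across features, at 0.25 for HFC, 0.19 for lovastatin and 0.40 for fenofibrate, and genes are not independent replicates. The spread of the arrays (SD) ranged from 0.42 to 1.09, with lovastatin replicate 1 the widest.

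Ehhadh was high on every array used and Decr2 stayed near the pool, so the 250 bases before the start of each are printed from RefSeq (GRCm38.p6). Both lie on the minus strand and are written 5′ to 3′ along the gene. Capitals mark GGGCGG and CCAAT on either strand.
Ehhadh, chr16:21787835-21788084: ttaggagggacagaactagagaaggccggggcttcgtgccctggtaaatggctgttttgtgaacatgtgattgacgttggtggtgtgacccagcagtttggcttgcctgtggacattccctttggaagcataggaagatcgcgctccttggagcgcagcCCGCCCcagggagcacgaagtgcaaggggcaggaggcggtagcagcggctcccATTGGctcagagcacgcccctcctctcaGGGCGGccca
Decr2, chr17:26090165-26090414: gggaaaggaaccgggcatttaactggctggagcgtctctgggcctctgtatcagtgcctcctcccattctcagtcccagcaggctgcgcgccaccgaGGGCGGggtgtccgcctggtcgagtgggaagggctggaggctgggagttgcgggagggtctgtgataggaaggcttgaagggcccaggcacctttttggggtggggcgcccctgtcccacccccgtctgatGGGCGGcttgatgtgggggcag
In the Ehhadh stretch GGGCGG began 91 bases before the start on the opposite strand and 10 bases before it on the gene's own strand, and CCAAT began 38 bases before it on the opposite strand. The Decr2 stretch held GGGCGG 153 and 22 bases before the start, on the gene's own strand, and no CCAAT.

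The full windows, from 250 bases before to 50 after the start, were searched on both strands (8 windows, 2 of them for Abcd3). They covered 7 of the chosen genes, Ehhadh, Decr2, Acaa1a, Acaa1b, Eci2, Pex11a and Abcd3. The direct repeat of AGGTCA with any 1 base between the copies, the element bound by PPAR with its partner RXR, was in 0 of the 8 windows and in 0.0396% of 32851 windows of that length. AGGTCA alone, which the repeat contains, was also in 0 of the 8 and in 16.3% of all windows. TATAAA was in none of the 8 and in 13.6% of all. GGGCGG was in the windows of Ehhadh, Decr2, Acaa1a, Eci2 and Pex11a and in 35.7% of all windows. CCAAT was in those of Ehhadh, Acaa1a, Acaa1b and Eci2 and in 37.4% of all. A match is a description of letters, and a missing match speaks only of these letters in this window.

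Taking all HFC-fed arrays together, with both dye orientations weighted equally, 6 of the 9 measured genes were above the chow pool at an unadjusted p under 0.05, namely Ehhadh, Crat, Hsd17b4, Eci2, Pex11a and Abcd3. Over all features tested, 5.19% were called higher by that rule. The same 6 genes were called higher for fenofibrate alone against the pool, and fenofibrate has a weight of 0.5 in this comparison. Abcd3 is among the 6 although both its HFC arrays were below the pool, so the count is not one of genes raised in every group. The median of the 9 genes was 0.50, beside 0.01 over all features. None of the 9 passed an adjusted p of 0.05 (limma, Benjamini-Hochberg over all features), a threshold that 110 of 19447 features passed (0.566%), 33 of them higher and 77 lower. Ehhadh came nearest, with an adjusted p of 0.0518. With HFC replicate 1 left out, features whose spots all lie in displaced blocks had no HFC value and were not tested. The count for that setting below is therefore out of fewer features. The count of 110 became 5 without HFC replicate 1, 25 without HFC replicate 2, 228 without lovastatin replicate 1, 824 without lovastatin replicate 2, and 0 without either fenofibrate array.

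**Figure D1:**
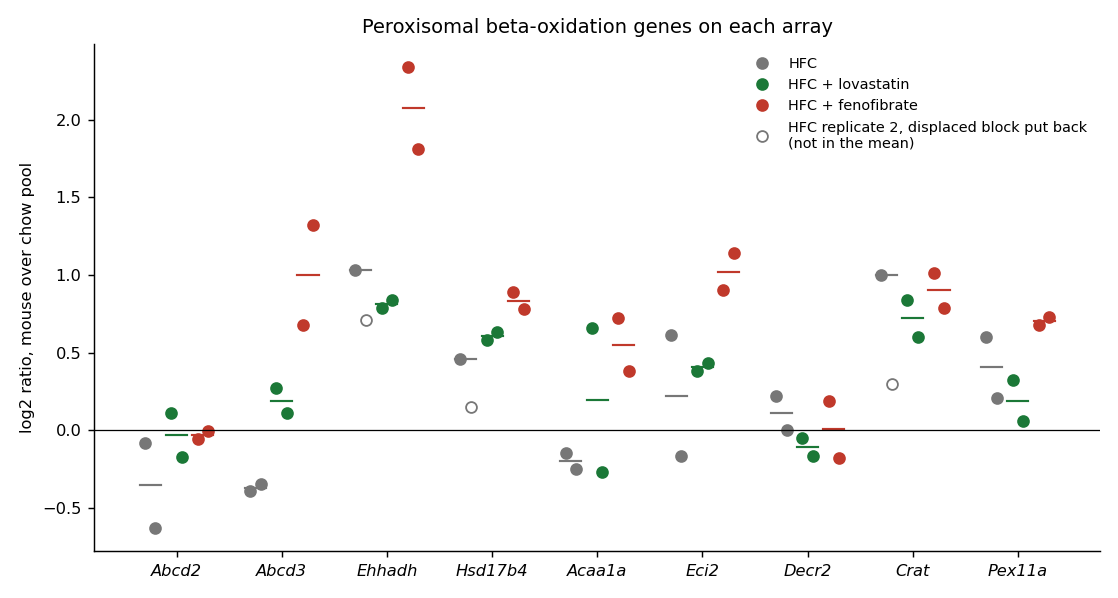
Log2 ratio of mouse over chow pool for each measured gene; filled points are single arrays coloured by group, short lines are group means, and open points are HFC replicate 2 values put back from displaced blocks. Ehhadh reached 2.34 and 1.81 on the fenofibrate arrays, while Decr2 stayed between -0.18 and 0.22.

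Import into the peroxisome was represented by both transporters. Abcd3, also known as PMP70 and an abundant protein of the peroxisomal membrane, had log2 ratios of -0.39 and -0.35 on the HFC arrays, 0.27 and 0.11 with lovastatin, and 0.68 and 1.32 with fenofibrate. The 3 groups did not overlap, with HFC below the pool, lovastatin slightly above it and fenofibrate highest. Over the pool the fenofibrate mean was 1.0 ± 0.45 (SD, n = 2), with an adjusted p of 0.335 in the limma fit. The dye-balanced mean of all arms was 0.46 with SE 0.13 (limma adjusted p = 0.299). Abcd3 differed between fenofibrate and HFC by 1.37 with SE 0.31, and this difference had an unadjusted p of 0.00543 and an adjusted p of 1 in limma. Among genes with both arrays in each group, both HFC arrays were on the other side of the pool from both lovastatin arrays for 1 of 6 (Abcd3, beside 8.22% of features) and from both fenofibrate arrays for 2 of 6 (Abcd3 and Acaa1a, beside 12.4%). The count was 0 of 9 between lovastatin and fenofibrate, beside 13.9%.

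Abcd2, a transporter of very long-chain and polyunsaturated acyl-CoA, has 2 probes that did not move alike. The first gave -0.37 and -0.63 on the HFC arrays, 0.11 and -0.26 with lovastatin, and -0.20 and 0.31 with fenofibrate. The second gave 0.21 on HFC replicate 1, 0.11 and -0.09 with lovastatin, and 0.08 and -0.32 with fenofibrate, and its HFC replicate 2 spot lies in a displaced block. On HFC replicate 1 and on both fenofibrate arrays the 2 probes had opposite signs. Averaged over probes, Abcd2 was at -0.11 with SE 0.13 over all arms (limma adjusted p = 0.804), and fenofibrate and lovastatin had the same mean, -0.03.

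Ehhadh encodes the L-bifunctional protein, the hydratase and dehydrogenase of the inducible peroxisomal pathway and a standard marker of PPARα activation. Its log2 ratio was 1.03 on HFC replicate 1, 0.79 and 0.84 with lovastatin, and 2.34 and 1.81 with fenofibrate. All 5 arrays used were above the pool, and both fenofibrate arrays lay above the other 3. The dye-balanced mean was 1.499 with SE 0.15 and a 95% interval from 1.11 to 1.89. Its adjusted p of 0.0518 (limma) fell to 0.0133 with the displaced blocks put back, to 0.0380 without lovastatin replicate 1 and to 0.0302 without lovastatin replicate 2, and rose to 0.0883 without HFC replicate 2 and to 0.553 and 0.659 without fenofibrate replicate 1 and 2. The runs just named are among 17 other settings, of which 6 passed the threshold, the 3 passes just given included. Over the 17 settings the value ranged from -0.58, when the fenofibrate arrays were given the opposite sign, to 1.81 under quantile normalization.

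In the single groups, the Ehhadh ratio over the pool was 2.08 ± 0.37 (SD, n = 2) with fenofibrate, where limma gave an unadjusted p of 0.000454 and an adjusted p of 0.130. It was 0.82 ± 0.04 (SD, n = 2) with lovastatin, where limma gave an adjusted p of 0.438. Against the mean of the HFC and lovastatin groups the fenofibrate group was higher by 1.15 with SE 0.29, and the adjusted p was 0.903 in limma.

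Hsd17b4 encodes the D-bifunctional protein, the counterpart of Ehhadh that also serves branched chains and bile acid precursors. Its ratio was 0.46 on HFC replicate 1, 0.58 and 0.63 with lovastatin, and 0.89 and 0.78 with fenofibrate. All 5 arrays used were above the pool, in a range far narrower than that of Ehhadh, and the fenofibrate pair was highest. The dye-balanced mean was 0.68 with SE 0.12 (limma adjusted p = 0.164). Fenofibrate exceeded the mean of the other groups by 0.30 with SE 0.24, an interval from -0.34 to 0.95 that includes 0.

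Acaa1a encodes a peroxisomal 3-ketoacyl-CoA thiolase. Its probe may also read Acaa1b, a near-identical copy, so the value is uncertain as a measure of either gene alone. The log2 ratios were -0.15 and -0.25 on the HFC arrays, 0.66 and -0.27 with lovastatin, and 0.72 and 0.38 with fenofibrate. HFC lay below and fenofibrate above the pool, while the lovastatin arrays disagreed in sign and overlapped both. The dye-balanced mean was 0.27 with SE 0.16 (limma adjusted p = 0.634), and fenofibrate exceeded HFC by 0.75 with SE 0.38 (limma adjusted p = 1).

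Eci2 encodes an enoyl-CoA isomerase that shifts double bonds so that unsaturated chains can enter the cycle. It was at 0.61 and -0.17 on the HFC arrays, 0.38 and 0.43 with lovastatin, and 0.90 and 1.14 with fenofibrate. The HFC mice straddled the pool and the lovastatin pair, and the fenofibrate pair lay above all other arrays. Over the pool, fenofibrate gave 1.02 ± 0.17 (SD, n = 2), with an adjusted p of 0.382 in limma. The mean over all arms was 0.67 with SE 0.15 (limma adjusted p = 0.190).

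Decr2, a peroxisomal dienoyl-CoA reductase that also serves unsaturated chains, gave 0.22 and 0.00 on the HFC arrays, -0.05 and -0.17 with lovastatin, and 0.19 and -0.18 with fenofibrate. The HFC values were the higher of the Cy5 arrays, and the fenofibrate pair spanned nearly the whole range. Its dye-balanced mean was 0.00 with a 95% interval from -0.29 to 0.29, which leaves out the values of Ehhadh, Crat, Hsd17b4, Eci2, Pex11a and Abcd3 in the same comparison. This is a comparison of differences from the pool, not of levels between genes, and the differences between genes were not tested.

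Crat, a carnitine acetyltransferase of peroxisomes and mitochondria, was at 1.0 on HFC replicate 1, 0.84 and 0.60 with lovastatin, and 1.01 and 0.79 with fenofibrate. The fenofibrate pair overlapped the lovastatin pair and spanned the HFC array, which lay above both lovastatin arrays, and every array used was above the pool by 0.60 or more. The dye-balanced mean was 0.88 with SE 0.13 (limma adjusted p = 0.115). It lay between 0.825 and 0.935 over the 5 fits that left out 1 array and still had a Crat value. Fenofibrate differed from the other groups by 0.04, with a 95% interval from -0.66 to 0.74. That interval also holds the 0.30 of Hsd17b4 and the 0.71 of Eci2, so at 2 arrays a group it does not show that Crat lacked a difference of that size.

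Pex11a encodes a membrane protein that elongates peroxisomes before they divide. Its ratios were 0.60 and 0.21 on the HFC arrays, 0.32 and 0.06 with lovastatin, and 0.68 and 0.73 with fenofibrate. All 6 were above the pool, the fenofibrate pair was highest, and the HFC and lovastatin arrays overlapped. The mean over all arms was 0.50 with SE 0.12 (limma adjusted p = 0.215). The 10 Pex11a spots share a single deposited value on each array, so they are 1 measurement. Of these spots, 5 lie in displaced blocks of HFC replicate 2. The shared value of 0.21 on that array may therefore mix displaced and undisplaced spots, and it was kept in the means and counts. The 4 single-spot values that could be put back there lay between 0.24 and 0.49, with a mean of 0.37 and an SD of 0.13.

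**Figure D2:**
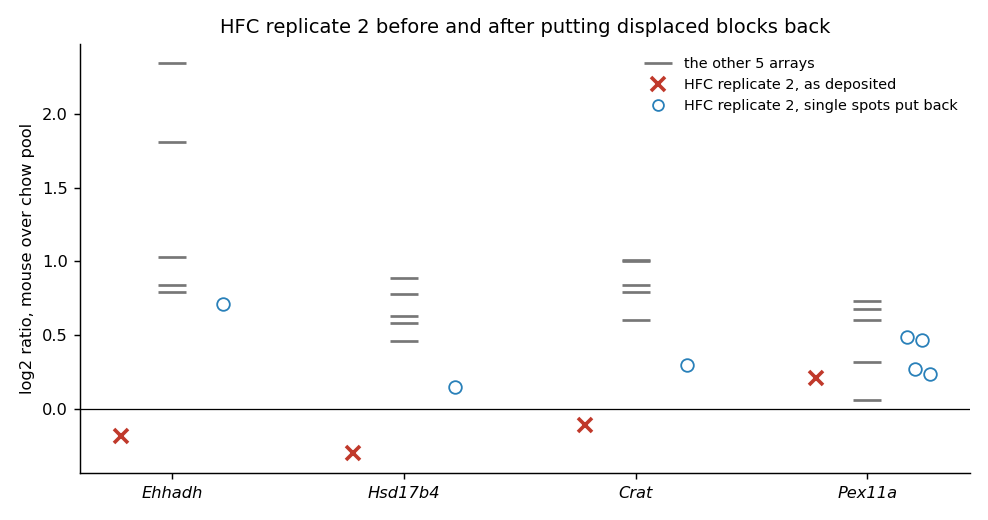
Log2 ratio on HFC replicate 2 for 4 of the genes with spots in its displaced blocks; crosses are as deposited, open circles are single spots put back, and dashes are the other 5 arrays. For Ehhadh, Hsd17b4 and Crat the deposited values of -0.18, -0.30 and -0.11 lie below 0 and the values put back, 0.71, 0.15 and 0.30, lie above it, and Pex11a is at 0.21 as deposited.

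Putting the blocks back moved all 3 genes that had lost their HFC replicate 2 value from below the pool to above it. Ehhadh went from -0.18 as deposited to 0.71, Hsd17b4 from -0.30 to 0.15, and Crat from -0.11 to 0.30. Each restored value remained the lowest of the 6 arrays for that gene. With them the HFC group would have 4 of its 9 genes above the pool on replicate 2, against 6 of 9 on replicate 1. For Abcd2 the displaced spot read -0.58 both as deposited and after rotation.

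By group, the number of genes higher than the pool at an unadjusted p under 0.05 was 2 of 9 for HFC (Ehhadh and Crat, beside 2.28% of all features), 3 of 9 for lovastatin (Ehhadh, Hsd17b4 and Crat, beside 4.62%) and 6 of 9 for fenofibrate (beside 3.85%). The 6 were Ehhadh, Eci2, Abcd3, Hsd17b4, Pex11a and Crat. Both HFC calls rest on 1 array, so the spread behind them comes from outside the HFC group. The displaced HFC replicate 2 values of Ehhadh and Crat, once put back, were 0.71 and 0.30, beside 1.03 and 1.0 on replicate 1. In the other direction the count was 0 of 9 in each group, beside 2.44%, 5.96% and 3.76% of all features. With an adjusted p under 0.05 the limma count was 0 of 9, and 0 of all features, for HFC, lovastatin and fenofibrate against the pool, where 921, 2064 and 1483 features had an unadjusted p under 0.05. These comparisons share the pool. The medians of the 9 genes were 0.22 for HFC, 0.20 for lovastatin and 0.84 for fenofibrate, beside medians over all features of 0.01, -0.01 and -0.01.

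Both fenofibrate arrays lay above every other array used for 5 of 9 genes, Ehhadh, Eci2, Abcd3, Hsd17b4 and Pex11a, and for 11.8% of all features. This order rests on reading the dye-swapped fenofibrate arrays as mouse over pool. With their sign turned, both would lie below every other array for 7 of 9 genes (these 5, Acaa1a and Crat), beside 16.3% of features. Ehhadh, Hsd17b4, Pex11a and Crat were above the pool on every array used, 4 of 9 genes beside 7.32% of features. In the comparison of fenofibrate with the other 4 arrays, Ehhadh and Abcd3 were higher at an unadjusted p under 0.05, 2 of 9 beside 2.76%. No feature passed the adjusted threshold there (0%), nor between fenofibrate and HFC or lovastatin, or between lovastatin and HFC, where 898, 559, 1075 and 390 features had an unadjusted p under 0.05 in limma. Abcd3 was 1.09 higher with SE 0.26 in that comparison and Ehhadh 1.15 higher, while Decr2 differed by 0.01 and Crat by 0.04.

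**Figure D3:**
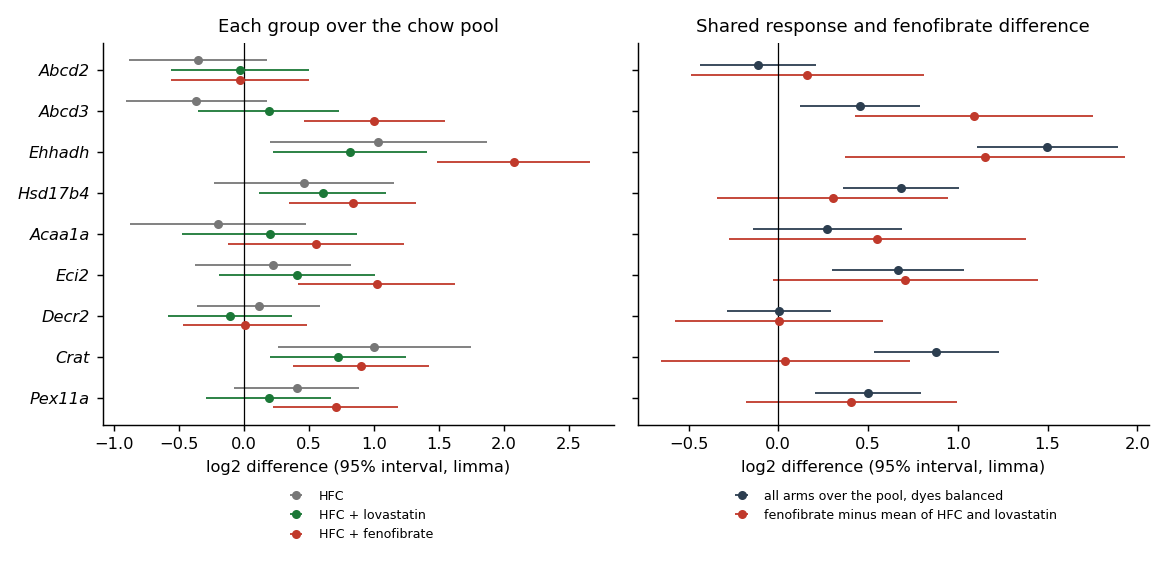
Fitted log2 differences with 95% intervals from limma for each gene; the left panel shows each group over the chow pool and the right panel the dye-balanced mean of all arms and fenofibrate minus the mean of HFC and lovastatin. The dye-balanced interval runs from 1.11 to 1.89 for Ehhadh and from -0.29 to 0.29 for Decr2.

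No difference between lovastatin and HFC, which share a dye orientation, was resolved for these genes. No gene of the 9 reached an unadjusted p under 0.05 in either direction, beside 2% of all features. The estimates ran from -0.28 for Crat to 0.56 for Abcd3, whose 95% interval was -0.21 to 1.33. Half-widths of such intervals had a median of 1.03 over all features, so differences of the size seen for Abcd3 could not be resolved with these arrays.

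Other peroxisomal genes were mixed in direction in the dye-balanced comparison and leaned higher with fenofibrate. Of 55 other genes of peroxisomal fatty acid and acyl-CoA handling, 50 were measured. In the dye-balanced comparison 0 passed the adjusted threshold higher, 1 lower and 49 did not pass, beside 0.566% of all features that passed. The gene that passed was Mpv17l, a peroxisomal membrane protein, which fell by 1.66 with SE 0.12 (limma adjusted p = 0.0187) and lay between -1.94 and -1.21 on the 6 arrays. At an unadjusted p under 0.05 in limma, 11 of the 50 were higher and 11 lower, beside 5.19% and 5.63% of all features. The list's median was 0.05, and 26 of 50 genes were above 0, beside 51% of all features. For fenofibrate against the pool, 9 of the 50 were higher and 4 lower by the unadjusted rule, beside 3.85% and 3.76% of all features. Against the other 4 arrays 7 were higher and 1 lower, beside 2.76% and 1.86%. Of 21 peroxins and division proteins, which build the organelle, 15 were measured. In the dye-balanced comparison 0 of them passed in either direction, with a median of 0.03. By the unadjusted rule 0 of these 15 were higher and 2 lower.

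Genes of the PPARα response outside the peroxisome gave 4 higher and 0 lower among 37 measured of 41 listed, and 33 that did not pass. Over all features 0.566% passed this adjusted threshold. Acot1, a cytosolic acyl-CoA thioesterase, rose by 2.89 with SE 0.17 (limma adjusted p = 0.0105), with 3.76 and 4.05 on the fenofibrate arrays and 1.48 to 2.48 on the other 4. The 3 others were the fatty acid omega-hydroxylases Cyp4a14 (2.23, SE 0.15), Cyp4a31 (1.91, SE 0.15) and Cyp4a10 (1.29, SE 0.13), with limma adjusted p-values of 0.0253, 0.0381 and 0.0342. Acot1 and the Cyp4a genes have near-identical copies, so their probes may read more than 1 gene. The calls of Cyp4a14, Cyp4a31, Cyp4a10 and Mpv17l were lost without HFC replicate 2 (adjusted p 0.0560, 0.0750, 0.133 and 0.0591), and those of Acot1 and these 4 genes without either fenofibrate array. Without HFC replicate 1 the calls of Cyp4a10 and Mpv17l were lost too (0.154 and 0.0814), and Cyp4a14 and Cyp4a31 had no value. The list's count of 4 became 1 without either HFC array, 8 without lovastatin replicate 1 and 11 without lovastatin replicate 2, and the count for the other peroxisomal genes became 2 and 4 without these lovastatin arrays. Scaling the arrays to equal spread ended the calls of Acot1, Cyp4a14, Cyp4a31, Cyp4a10 and Mpv17l (limma adjusted p = 0.0502, 0.0555, 0.0502, 0.0547 and 0.0605), as did the replicate block and turning the sign of the fenofibrate arrays, so that both lists' counts were 0. The list's median was 0.34, next to 0.50 for the 9 peroxisomal genes. At an unadjusted p under 0.05 in limma, 19 of the 37 genes were higher and 2 lower in the dye-balanced comparison. The shares over all features were 5.19% and 5.63%. The 2 lower genes were Angptl4 (-0.82, SE 0.17) and Txnip (-0.88, SE 0.15). Of 17 receptors and coregulators of the PPAR family, 15 were measured and 0 passed, with a median of 0.01. By the unadjusted rule 0 of these 15 were higher and 2 lower.

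**Figure D4:**
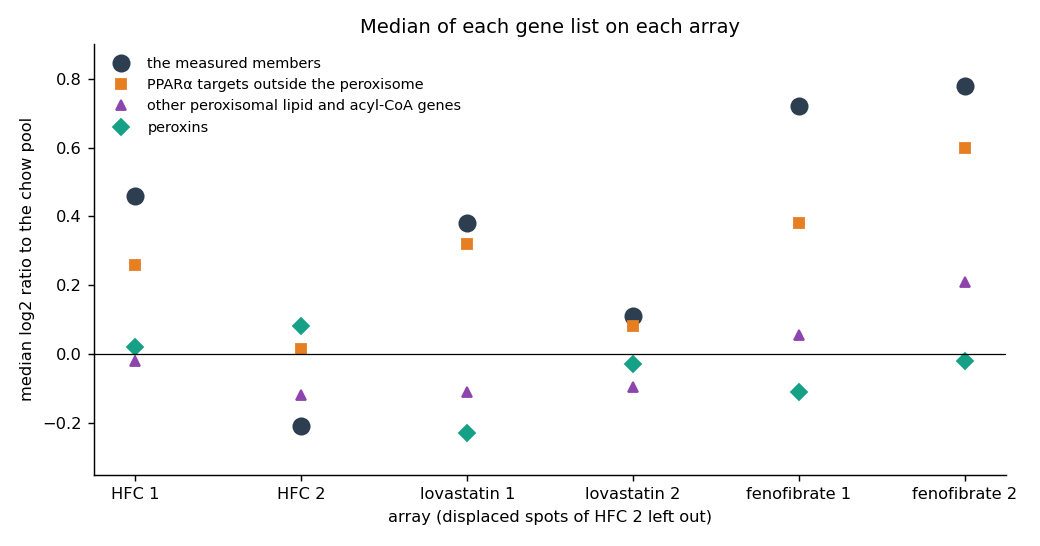
Median log2 ratio of each gene list on each array; circles are the 9 peroxisomal genes, squares the PPARα targets outside the peroxisome, triangles the other peroxisomal lipid genes and diamonds the peroxins. Circles stand at 0.72 and 0.78 on the fenofibrate arrays, and peroxins lie between -0.23 and 0.08 on all arrays.

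Within each array, the median of the peroxisomal genes was 0.46 on HFC replicate 1 and -0.21 on HFC replicate 2, where 6 of them were used. It was 0.38 and 0.11 with lovastatin and 0.72 and 0.78 with fenofibrate. The low value of HFC replicate 2 comes without Ehhadh, Hsd17b4 and Crat, and with them put back the median was 0.00. The fenofibrate arrays had the highest medians, and the remaining arrays differed among mice of 1 group by as much as between groups.

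Marker lists of liver cell types were set beside these values. The median of 10 Kupffer cell and macrophage genes, of 12 listed, was -0.34 and -0.65 on the fenofibrate arrays and between -0.01 and 0.13 on the other arrays. For 8 of 10 hepatocyte genes it was -0.46 and -0.57 there and between -0.34 and -0.03 elsewhere, and for 9 stellate cell and fibroblast genes it was -0.07 and -0.51 beside -0.01 to 0.14. No gene of these lists passed the adjusted threshold for a single group against the pool, where 0% of all features did. At an unadjusted p under 0.05 in limma, 4 of 10 Kupffer, 4 of 8 hepatocyte and 3 of 9 stellate genes were lower with fenofibrate. In these 3 lists 0 were higher with fenofibrate. The shares over all features were 3.76% lower and 3.85% higher. Against the pool, 2 of 8 hepatocyte genes were lower in the HFC group, beside 2.44% of all features. With lovastatin 3 were lower and 1 higher, beside 5.96% and 4.62%. Kupffer and stellate genes gave 0 in either direction in those groups. Against HFC, fenofibrate had 1 Kupffer, 1 hepatocyte and 2 stellate genes lower, beside 1.39%, and 0 higher. The endothelial (7 of 7 genes), lymphocyte (8 of 9), cholangiocyte (5 of 6), adipocyte (4 of 5) and erythroid (3 of 5) lists had fenofibrate medians over the pool of -0.14, -0.12, -0.07, 0.03 and -0.15. Their part in the values of the peroxisomal genes was not tested.

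The search covered 8441 named genes with a value on all 6 arrays once displaced spots were left out. The 3 most like the mean of the 6 peroxisomal genes measured on all 6 arrays were Fam183b (Pearson r = 0.99), Rab18 (0.98) and Lrrc42 (0.98). That mean was 0.14 and -0.20 on the HFC arrays, 0.28 and 0.00 with lovastatin, and 0.52 and 0.56 with fenofibrate. Fam183b ran parallel at 0.08, -0.52, 0.43, -0.02, 0.93 and 1.16, whereas Lrrc42 was below the pool on all 6 arrays. The likeness is one of pattern over 6 arrays, taken as the highest of many, and is a description only.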

How the data were processed

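Per the labels, 0.5 µg of total RNA was used per labelling by linear amplification, and replicates are separate mice. The deposited table holds 1 log ratio, read here as log2, for each spot on each array, as the authors deposited it. How the scans were read, corrected and normalized is not given in the sources used here. Without intensities no filter on dim probes was possible, and precision is limited by the number of arrays.

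Of 22575 spots, 726 had no value and 561 unnamed control spots were left out, leaving 21288. Symbols came from the platform annotation (18658 spots with 1 symbol, 30 with several, 3887 with none). Probes of a gene were averaged, giving 19517 features. Group means were fitted to all 6 arrays with limma 3.58.1 in R 4.3.3, with Benjamini-Hochberg adjustment over all features and a threshold of 0.05. A feature with no value in a group compared was not tested there. The dye-balanced comparison has weights of 0.5 for fenofibrate and 0.25 for each other group. The fit was tested on simulated data. Data were prepared with Python 3.11.15 and pandas 2.3.3.

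The genes and lists were chosen with earlier results of these data known. The rule for named genes took all 10 symbols, up to 4 genes past the threshold from each list, Cyp4a10, a gene that is not reported here, and the 3 genes most alike in pattern. Other settings covered the displaced blocks, centring, scaling, single probes, array weights, a robust prior, the noisiest features, a replicate block, the sign of the fenofibrate arrays and leaving out each array.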

Additional observations from a re-analysis of the deposited data

Results flagged for a closer look

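Abcd3 and Acaa1a were picked out because every array of one group lay on the other side of the pool from every array of another. That held for 8.22% of all features between HFC and lovastatin and for 12.4% between HFC and fenofibrate. Abcd3 was below the pool on both HFC arrays and above it on both lovastatin arrays, a difference of 0.56 (limma adjusted p = 0.972). It was also above the pool on both fenofibrate arrays, a difference of 1.37 from HFC (limma adjusted p = 1). Acaa1a was below the pool on both HFC arrays and above it on both fenofibrate arrays, a difference of 0.75 (limma adjusted p = 1). Dye differs between the fenofibrate and HFC arrays and not between the lovastatin and HFC arrays.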

How the results depend on the processing

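With 2 arrays a group, counts of features past the threshold moved widely. Counts are given for the dye-balanced comparison, then for fenofibrate, lovastatin and HFC against the pool where they left 0. As deposited they were 67 and 9. With blocks put back they were 191, 32, 2 and 5. Leaving out shared values of repeated probes too, a setting chosen after seeing the data, lowered those 4 counts by 2, 0, 0 and 2. Centring gave 12 for fenofibrate. Quantile normalization gave 193, 14, 4 and 9. Scaling to equal spread gave 7 for the dye-balanced comparison. Array weights, which came out equal within a group, gave 230, and 111 for fenofibrate, where Ehhadh passed (limma adjusted p = 0.0335). Removing the 10% of features of largest residual spread gave 346, 100, 44 and 20. Turning the sign of the fenofibrate arrays gave 0. The dye-balanced values were then -0.58 for Ehhadh, -0.35 for Eci2, -0.55 for Abcd3, -0.28 for Acaa1a, -0.15 for Hsd17b4, -0.20 for Pex11a, -0.0025 for Decr2 and -0.02 for Crat, and -1.02, -0.53, -0.99 and -0.63 for Acot1, Cyp4a14, Cyp4a31 and Cyp4a10, for single genes a setting chosen after seeing the data. Leaving out 1 array gave 0 to 824, 0 to 23, 0 to 3805 and 0 to 6, and 0 to 1184 for lovastatin against HFC, 0 to 2033 for fenofibrate against lovastatin, and 0 for fenofibrate against HFC and against the other 4 arrays. Each highest count came without lovastatin replicate 2, where the array of largest spread stood alone for its group. For HFC and fenofibrate against the pool it was the same without lovastatin replicate 1.

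Replicate numbers did not pair the mice (correlations of deviations -0.02, -0.0001 and 0.03). With the replicate block the dye-balanced count was 0, Ehhadh had an adjusted p of 0.185, and Acot1, Cyp4a14, Cyp4a31, Cyp4a10 and Mpv17l had 0.0572, 0.0940, 0.126, 0.0986 and 0.0699. Of the genes named here, the block changed no other call.

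Elsewhere some small values of the peroxisomal genes changed sign, none past the threshold. Acaa1a with lovastatin was -0.0033 under quantile normalization and -0.0076 under scaling, and Abcd2 with fenofibrate was 0.055 for its first probe. For lovastatin against HFC, Ehhadh was 0.39 and Crat 0.28 as deposited, Crat was 0.07 with blocks put back, and Hsd17b4 was -0.031 under quantile normalization and -0.043 under scaling. For fenofibrate against HFC, Crat was 0.46 as deposited, 0.25 with blocks put back and 0.015 with the replicate block, and against the other 4 arrays it was -0.015 under scaling. Leaving out 1 array turned the sign in 19 of 417 values, those of Eci2, Abcd2, Acaa1a, Decr2 and Crat. Against the pool, the ranges were -0.17 to 0.61 for Eci2 in HFC, -0.18 to 0.11 for Abcd2 and -0.27 to 0.66 for Acaa1a with lovastatin, -0.18 to 0.19 for Decr2 with fenofibrate and -0.09 to 0.095 for Decr2 over all arms. For lovastatin against HFC they were -0.21 to 0.58 for Eci2 and -0.07 to 0.86 for Acaa1a. For fenofibrate against HFC they were -0.29 to 0.08 for Decr2 and -0.21 to 0.01 for Crat, and against lovastatin -0.11 to 0.82 for Acaa1a and -0.07 to 0.30 for Decr2. Against the other 4 arrays they were -0.18 to 0.19 for Decr2 and -0.07 to 0.15 for Crat. The causes were not tested. Without HFC replicate 1, Ehhadh, Hsd17b4 and Crat had no HFC value.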
